A study of Mus musculus with 10 samples.

Results

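Retinal ganglion cell genes were followed in bulk RNA from 10 mouse retina libraries as a set of 10 genes picked by name in the deposited count table: the transcription factors Pou4f1, Pou4f2 and Pou4f3, the RNA-binding protein Rbpms, the membrane and cytoplasmic proteins Thy1 and Sncg, the neurofilament subunits Nefl, Nefm and Nefh, and the photopigment Opn4. All 10 were found among the 35275 genes of the table and all 10 passed the filter on low counts, which left 17435 genes for testing. The 5 treated libraries came from C57BL/6 mice aged 10 to 12 weeks given 140 mg/kg/day of vigabatrin over 11 days, delivered by an osmotic pump under the skin. The 5 control libraries came from mice of the same strain and age whose treatment label reads vehicle, although their titles call them untreated. Each library is called by its group and its title number. Vigabatrin treats epilepsy by blocking GABA transaminase for good, and patients who take it can lose part of the visual field. Whether every library came from its own animal is not stated, and the p-values therefore rest on library-to-library spread that may be technical.

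Ganglion cells are the output neurons of the retina. They lie in its innermost cell layer, share that layer with displaced amacrine cells, and send the axons that form the optic nerve. The POU4 (BRN3) transcription factors specify ganglion cells and their subtypes, neurofilaments give their long axons calibre, and a small class that makes melanopsin responds to light directly and drives pupil and circadian responses. Ganglion cells are a small minority of retinal cells, and in bulk RNA fewer cells of a type and less RNA per cell cannot be told apart.

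None of the 10 ganglion cell genes differed between vigabatrin and vehicle retinas beyond the spread between libraries. The edgeR quasi-likelihood test called 0 of the 10 at an adjusted p under 0.05, and 0 had an unadjusted p under 0.05 in the fit of all 10 libraries on group alone. Over all genes tested 1 gene was called (0.00574%), St8sia2, against 85 by DESeq2's Wald test and 0 by limma-voom, and 7.36% had an unadjusted p under 0.05. DESeq2's Wald test and limma-voom also called 0 of the 10. Fitted log2 fold changes, vigabatrin over vehicle, ran from -0.15 for Opn4 to 0.12 for Pou4f3, with 7 positive and 3 negative. Their median was 0.03, against -0.0013 over all tested genes, of which 49.4% were positive. The vigabatrin and vehicle libraries overlapped for all 10 genes, where 1.48% of all tested genes had groups that did not overlap. For Thy1, the most precisely measured, the 95% interval of the fold was 0.978 to 1.10, and for Opn4 and Pou4f3, the least precisely measured, the intervals were 0.688 to 1.19 and 0.827 to 1.42.

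**Figure D1:**
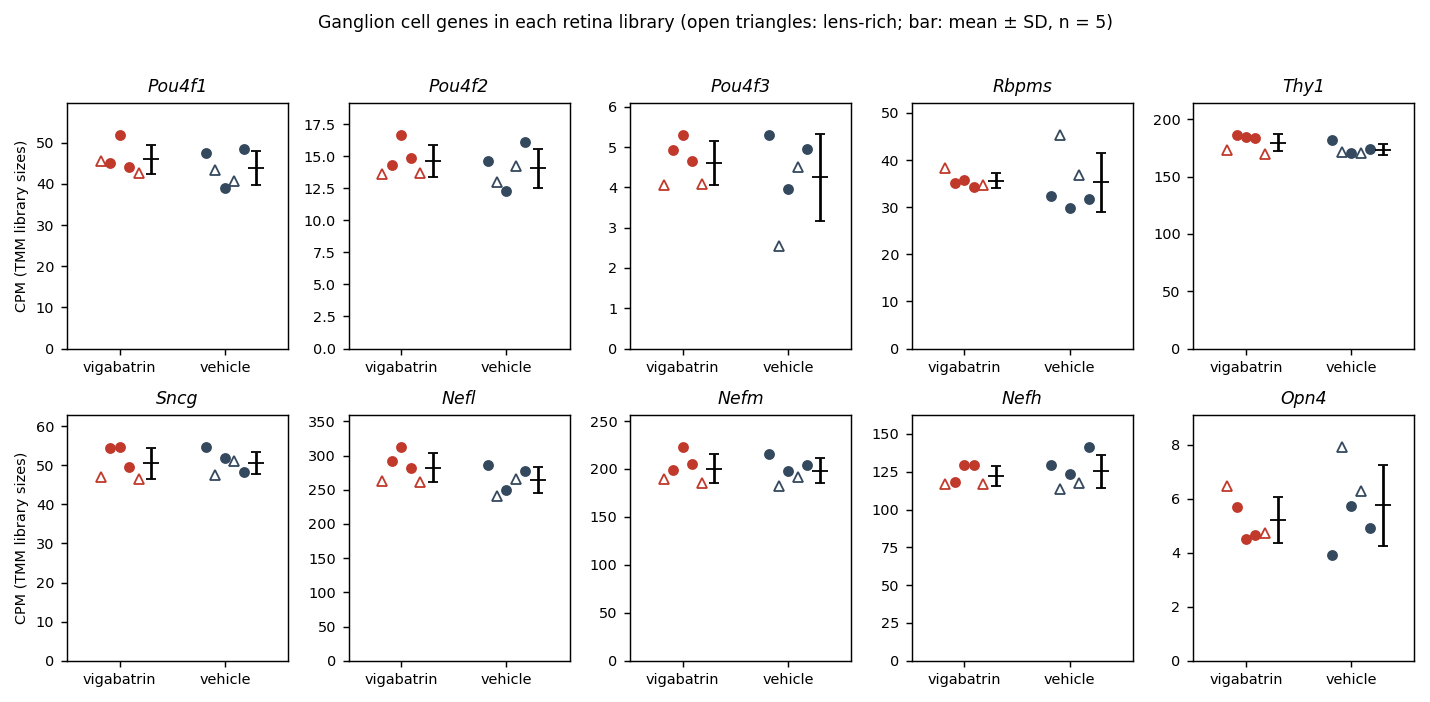
Counts scaled to library size (CPM, vertical axes starting at 0) of the 10 ganglion cell genes in each library, vigabatrin left of vehicle, with the mean and SD of 5 libraries beside each group and open triangles for the 4 libraries rich in lens transcripts. The groups overlap in every panel, and vehicle 835 stands at 2.54 CPM for Pou4f3 and 45.4 CPM for Rbpms.

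The libraries held 36056135 to 54052502 counts. Rod markers summed to 52199 to 57118 CPM in vigabatrin libraries and 53347 to 58357 CPM in vehicle libraries, so the defining photoreceptor genes of the labelled tissue were present throughout. Neighbouring tissue was carried over unevenly: lens genes took 1.98% and 1.74% of all counts in vigabatrin 2344 and 2429 and 1.93% and 1.29% in vehicle 835 and 1582, against at most 0.104% in the other 6 libraries. Summed pigment epithelium markers ranged from 12.1 to 253 CPM in vigabatrin libraries and from 20.9 to 725 CPM in vehicle libraries, with the highest value in vehicle 835. The ranges of the summed oligodendrocyte markers, which would mark optic nerve, were 61.4 to 71.1 CPM after vigabatrin and 64.2 to 85.1 CPM in vehicle. Amacrine markers, from cells that share the ganglion cell layer, summed to 872 to 945 CPM after vigabatrin and 820 to 897 CPM in vehicle, and horizontal cell markers to 73.8 to 86.2 CPM and 76.7 to 88.6 CPM in the same order of groups. No gene of the 14 marker lists passed the edgeR test.

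Levels of the 10 genes spanned a wide range when counts were divided by gene length (RPKM, CPM per kilobase of gene length). Thy1 was highest at 103 ± 4.32 RPKM in vigabatrin and 99.9 ± 2.74 RPKM in vehicle (SD, n = 5 each), which put its vehicle level above 97.6% of tested genes. Nefl followed at 83.6 ± 6.27 and 78.1 ± 5.65 RPKM, in vigabatrin and in vehicle. Sncg had 59.2 ± 4.64 RPKM in vigabatrin and 59.5 ± 3.33 RPKM in vehicle, and Nefm had 54.5 ± 4.02 and 53.9 ± 3.43 RPKM in the same groups. Sncg and Nefm are neighbours in this order whose vehicle ranges overlapped (55.8 to 64.1 and 49.7 to 58.7 RPKM). Nefh had 30.6 ± 1.66 RPKM in vigabatrin and 31.3 ± 2.70 RPKM in vehicle, Rbpms 14.0 ± 0.637 and 13.8 ± 2.44, and Pou4f1 10.3 ± 0.797 and 9.86 ± 0.926. Pou4f2 had 4.56 ± 0.393 RPKM in vigabatrin and 4.39 ± 0.464 RPKM in vehicle. The lowest were Opn4 at 2.30 ± 0.374 and 2.55 ± 0.664 RPKM and Pou4f3 at 1.95 ± 0.228 and 1.80 ± 0.458 RPKM, again vigabatrin first, and their vehicle ranges overlapped (1.73 to 3.50 and 1.08 to 2.25 RPKM). The other neighbours in the order did not overlap in vehicle.

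The transcription factors showed small positive fitted changes that did not pass the test. Pou4f1, also called BRN3A, which controls the differentiation of many ganglion cell types, is a minus-strand gene of chromosome 14 (mm10, 104461676 to 104467999, ENSMUSG00000048349). It had 45.6, 45.2, 51.9, 44.2 and 42.7 CPM in vigabatrin 2344, 2347, 2349, 2428 and 2429, against 47.6, 43.5, 39.1, 40.7 and 48.4 CPM in vehicle 832, 835, 1580, 1582 and 2345. Vigabatrin 2349 was above every vehicle library, and the other 4 lay inside the vehicle range. The fitted log2 difference was 0.07 (SE 0.07, adjusted p = 0.889, edgeR quasi-likelihood test as for the other genes).

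Pou4f2, or BRN3B, needed for the survival and axon growth of most ganglion cells, is a minus-strand gene of chromosome 8 (78433010 to 78436645, ENSMUSG00000031688). In the same order of libraries it had 13.6, 14.3, 16.7, 14.9 and 13.7 CPM after vigabatrin, against 14.7, 13.0, 12.3, 14.2 and 16.1 CPM in vehicle. Its highest library was again vigabatrin 2349, and its lowest was vehicle 1580. Its log2 fold change was 0.06 (SE 0.09, adjusted p = 0.926).

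Pou4f3, or BRN3C, which marks a smaller ganglion cell subset, is a plus-strand gene of chromosome 18 (42394539 to 42397249, ENSMUSG00000024497). It rested on 120 to 276 counts per library and had 4.06, 4.93, 5.31, 4.65 and 4.10 CPM after vigabatrin, against 5.30, 2.54, 3.96, 4.50 and 4.97 CPM in vehicle. Vehicle 835, the library with most pigment epithelium RNA, was the lowest of all 10. Pou4f3 measured a log2 fold change of 0.12 (SE 0.18, adjusted p = 0.928), and -0.023 without vehicle 835. All vigabatrin libraries but only vehicle 2345 of the vehicle libraries have title numbers of 2344 or more. With that number range as a term, the group difference therefore compares the vigabatrin libraries with vehicle 2345 alone. This holds wherever that range enters the model below. The log2 fold changes were then -0.076 for Pou4f1, -0.14 for Pou4f2 and -0.11 for Pou4f3.

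Rbpms and the surface and cytoplasmic markers likewise did not differ beyond the spread. Rbpms, an RNA-binding protein used as a general ganglion cell marker in the retina and also made by smooth muscle, is a minus-strand gene of chromosome 8 (33782643 to 33929863, ENSMUSG00000031586). It had 38.4, 35.1, 35.8, 34.3 and 34.7 CPM after vigabatrin, against 32.5, 45.4, 29.9, 36.8 and 31.7 CPM in vehicle. All 5 vigabatrin libraries fell between the highest vehicle library, 835, and the lowest, 1580, and they spread less: the SD was 1.62 CPM in vigabatrin and 6.20 CPM in vehicle. Rbpms had a log2 fold change of 0.02 (SE 0.10, adjusted p = 0.987). Without vehicle 835 it was 0.12, with the pigment epithelium level as a term 0.11, and with the range of title numbers in the model 0.17. Without the 4 lens-rich libraries Rbpms was at 0.16 (SE 0.05, unadjusted p = 0.0106, adjusted p = 0.603). None of these was called.

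Thy1 encodes a glycolipid-anchored surface protein of ganglion cells that is also found on mouse T cells, and is a plus-strand gene of chromosome 9 (44043384 to 44048579, ENSMUSG00000032011). It had 173, 186, 185, 183 and 169.8 CPM after vigabatrin, against 181, 171, 170.1, 170.3 and 174 CPM in vehicle. Vigabatrin 2347, 2349 and 2428 were above every vehicle library, while vigabatrin 2429 was below all of them. The log2 fold change was 0.05 (SE 0.04, adjusted p = 0.809). T-cell markers summed to 1.19 to 1.75 CPM after vigabatrin and 1.27 to 2.08 CPM in vehicle. Cd3g had 0 counts in every library and Cd3e and Cd3d no more than 4, while Lck, Cd4 and Cd8a reached 47, 38 and 20. The part of T cells in the Thy1 values was not tested.

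Sncg, gamma-synuclein, a small presynaptic and axonal protein of ganglion cells, is a minus-strand gene of chromosome 14 (34370274 to 34374789, ENSMUSG00000023064). It had 46.9, 54.5, 54.7, 49.6 and 46.6 CPM after vigabatrin, against 54.6, 47.6, 51.8, 51.0 and 48.3 CPM in vehicle. Vigabatrin 2344 and 2429 were below every vehicle library and vigabatrin 2349 was just above the highest. The log2 fold change was -0.0054 (SE 0.06, adjusted p = 0.993).

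The neurofilament genes encode the light, medium and heavy subunits of the intermediate filament of large axons, and horizontal cells of the mouse retina make them too. Nefl, the light subunit, is a plus-strand gene of chromosome 14 (68083863 to 68089095, ENSMUSG00000022055). It had 263, 292, 313, 282 and 262 CPM after vigabatrin, against 287, 240.2, 250.03, 265 and 277 CPM in vehicle. Its log2 fold change of 0.10 (SE 0.06, adjusted p = 0.788) had the smallest p of the 10 genes, with vigabatrin 2347 and 2349 above every vehicle library.

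Nefm, the medium subunit, had 189.5, 199, 223, 205 and 186 CPM after vigabatrin, against 216, 183, 198, 191 and 204 CPM in vehicle (chromosome 14, 68082590 to 68124846, minus strand, ENSMUSG00000022054). The groups had nearly the same mean, and the log2 fold change was 0.01 (SE 0.06, adjusted p = 0.975). For Nefh, the heavy subunit (chromosome 11, 4938754 to 4948064, minus strand, ENSMUSG00000020396), the values were 117, 118, 129.6, 129.5 and 117 CPM after vigabatrin, against 129, 114, 123.5, 118 and 141 CPM in vehicle. Vehicle 2345 held the highest Nefh value, and all 5 vigabatrin libraries were inside the vehicle range (log2 fold change -0.03, SE 0.06, adjusted p = 0.937). With the range of title numbers in the model, which sets the vigabatrin libraries against vehicle 2345 alone, Nefh was at -0.21.

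Within a library, the proportion of the subunits could be read without any scaling between libraries. The Nefm to Nefl ratio of RPKM was 0.661, 0.625, 0.655, 0.668 and 0.651 in the vigabatrin libraries, against 0.692, 0.699, 0.729, 0.662 and 0.675 in the vehicle libraries. Only vehicle 1582 lay within the vigabatrin range. The mean was 0.652 ± 0.0164 after vigabatrin and 0.691 ± 0.0253 in vehicle (SD, n = 5 each), and the exact permutation test gave p = 0.0159 (two-sided). The 7 ratios between ganglion cell genes were chosen after the values were seen, and the Benjamini-Hochberg adjusted p over them was 0.111, so the difference did not pass. The Nefh to Nefl ratio was 0.367 ± 0.0193 after vigabatrin and 0.402 ± 0.0236 in vehicle (exact permutation p = 0.0476, adjusted 0.167). The remaining 5 ratios, Pou4f1 to Pou4f2, Pou4f3 to Pou4f2, Sncg to Thy1, Opn4 to Pou4f2 and Rbpms to Pou4f2, had adjusted exact permutation p-values of 0.463 to 0.881. Nefl and Nefm are annotated on opposite strands with 1108 exonic bases in common (GENCODE M21, chromosome 14, 68083863 to 68084970), which is 32.8% of the exonic bases of Nefl and belongs to 1 of the 2 Nefm transcripts. With no stated strand setting for the counting, reads of the 2 genes from that stretch cannot be told apart, and how far they enter the ratio was not tested.

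**Figure D2:**
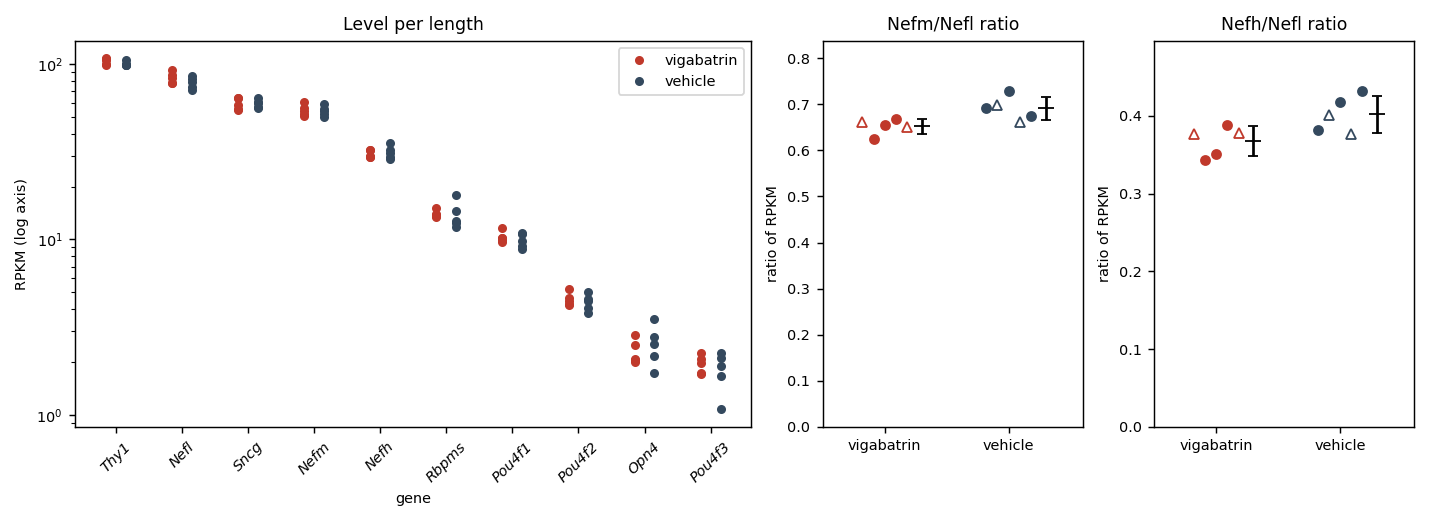
Left, RPKM of each gene on a log axis, ordered by vehicle mean, with 1 point per library, vigabatrin left of vehicle. Middle and right, ratios of neurofilament RPKM in each library with the mean and SD of 5, on axes starting at 0, where open triangles mark lens-rich libraries. The Nefm to Nefl ratio lies between 0.625 and 0.668 in vigabatrin libraries and between 0.662 and 0.729 in vehicle libraries.

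Opn4 encodes melanopsin, the photopigment of intrinsically photosensitive ganglion cells, and is a minus-strand gene of chromosome 14 (34590618 to 34600142, ENSMUSG00000021799). With 178 to 373 counts per library it had 6.47, 5.68, 4.50, 4.65 and 4.73 CPM after vigabatrin, against 3.92, 7.91, 5.74, 6.28 and 4.91 CPM in vehicle. The vehicle libraries held both the lowest value, in 832, and the highest, in 835, and all vigabatrin libraries lay between them. The log2 fold change was -0.15 (SE 0.18, adjusted p = 0.905), and without vehicle 835 it was -0.0032. It was 0.025 without the 4 lens-rich libraries and 0.082 with the range of title numbers in the model, and it was not called in either.

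Genes of the melanopsin cascade did not pass the test. Melanopsin signals through Gq-class G proteins and phospholipase C to TRPC channels, and the cells release glutamate and the peptide PACAP. Of the 9 genes on that list all 9 were tested, with 0 called higher and 0 called lower, 6 positive and 3 negative values and a median of 0.03. Adcyap1, which encodes PACAP, had 1.68, 2.17, 2.29, 2.36 and 1.83 CPM after vigabatrin, against 3.24, 2.61, 2.57, 2.99 and 2.59 CPM in vehicle. All 5 vigabatrin libraries were below all 5 vehicle libraries, the only such gene among the 9 and a pattern found in 0.631% of all tested genes. Its log2 fold change was -0.44 (SE 0.12, unadjusted p = 0.00462, adjusted p = 0.501). Adcyap1 rested on at most 169 counts in any library. Its value was -0.31 without the lens-rich libraries and -0.33 with the range of title numbers in the model. Trpc6, a channel gene, measured 0.30 (SE 0.12; 0.50 with the range of title numbers in the model), with 4 of 5 vigabatrin libraries above all vehicle libraries. The same held for Eomes, a transcription factor of melanopsin cells that also stands on the identity list, at 0.19 (SE 0.07), and Gnaq, a G-protein subunit, measured 0.09 (SE 0.04). The adjusted p was 0.611 for Trpc6 and for Eomes and 0.711 for Gnaq.

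A wider list of 20 genes of ganglion cell identity gave the same outcome, with 20 tested, 0 called in either direction, 13 positive and 7 negative and a median log2 fold change of 0.03. Besides Eomes, genes of small p were Jam2, an adhesion molecule of a direction-selective type, at -0.07 (SE 0.04, adjusted p = 0.727) and Spp1, osteopontin, at -0.37 (SE 0.22, adjusted p = 0.759). Spp1 had 11.9 ± 1.97 CPM after vigabatrin and 15.5 ± 5.88 CPM in vehicle, with 24.7 CPM in vehicle 835 and 18.0 CPM in vehicle 1582. Its log2 fold change was -0.14 without vehicle 835, -0.0050 without the 4 lens-rich libraries and 0.095 with the range of title numbers in the model. Slc17a6, the vesicular glutamate transporter of ganglion cells, had 64.5 ± 2.95 CPM after vigabatrin and 62.7 ± 4.92 CPM in vehicle (log2 fold change 0.04, SE 0.06).

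Among 14 axon and cytoskeleton genes, 0 were called, 11 were positive and 3 negative, and the median was 0.05. Tubb3, a neuronal tubulin, had the smallest p, with 101 ± 5.17 CPM after vigabatrin and 96.0 ± 4.17 CPM in vehicle (0.07, SE 0.04, adjusted p = 0.789). Stmn3, a microtubule regulator, measured -0.05, Kif5a, a kinesin that carries neurofilaments, 0.08, and Sptbn4, the spectrin of the axon initial segment, 0.06, each with a standard error of 0.04 to 0.06. With the range of the title numbers as a term the median of this list was -0.033.

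Genes induced by axon injury in ganglion cells were not called either. Of 13 on the list 12 were tested, 4 positive and 8 negative, with a median of -0.12, and Sprr1a was left out by the filter with at most 5 counts in any library. Sox11, a transcription factor that rises in injured ganglion cells, had 3.84 ± 0.340 CPM after vigabatrin and 2.94 ± 0.389 CPM in vehicle (log2 fold change 0.39, SE 0.11, adjusted p = 0.501; 0.15 with the range of title numbers in the model). In the other direction, Atf3, an injury and stress transcription factor, had 5.42 ± 0.566 CPM after vigabatrin and 6.75 ± 0.606 CPM in vehicle (-0.32, SE 0.10, adjusted p = 0.506). Chac1, a glutathione-degrading enzyme of the stress response, measured -0.45 and Tnfrsf12a, a cytokine receptor, -0.38 (SE 0.13 and 0.11, adjusted p = 0.501 for both). With the range of title numbers in the model Chac1 was at -0.22 and Tnfrsf12a at -0.030. At an unadjusted p under 0.05 the list had 1 higher and 3 lower genes, 4 of 12 beside 7.36% over all genes, and the lists were drawn up with earlier results of these data known. Without vehicle 835 the median was -0.067, and without vehicle 1582 it was -0.17.

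**Figure D3:**
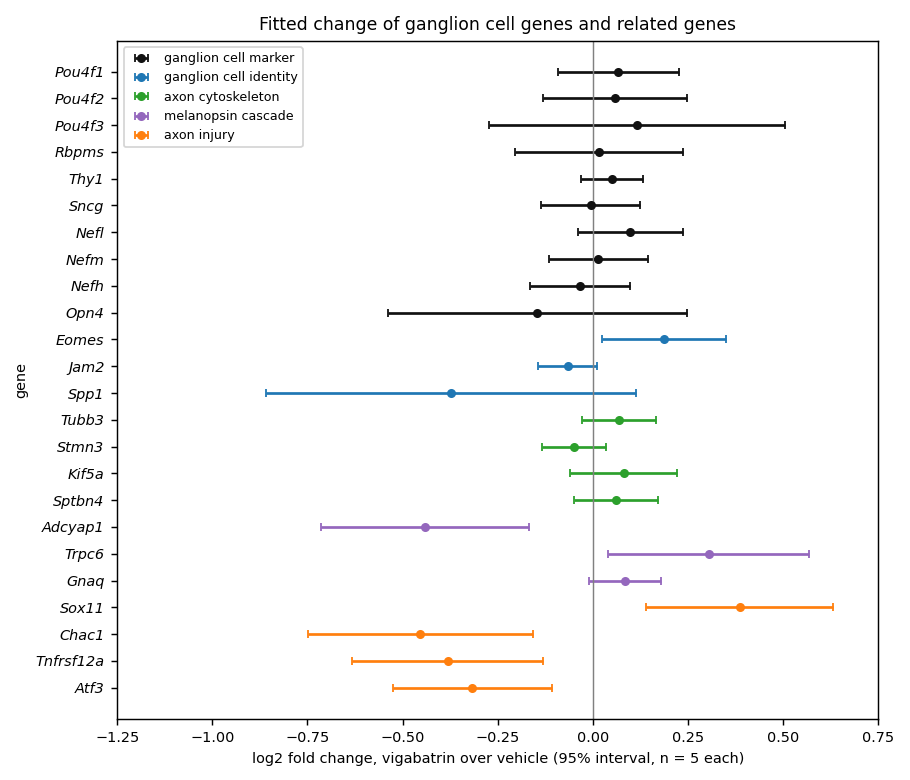
Fitted log2 fold change, vigabatrin over vehicle, with its 95% interval from 5 libraries per group, for the 10 ganglion cell genes and the genes named from the related lists. All 10 ganglion cell intervals include 0; those of Eomes, Adcyap1, Trpc6, Sox11, Chac1, Tnfrsf12a and Atf3 do not, and no gene shown passed the adjusted threshold.

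Most of the ganglion cell genes varied together from library to library. After subtracting each group's mean, 29 of the 45 pairs of the 10 genes were positively related over the 10 libraries. Rbpms (r from -0.74 to -0.0047) and Opn4 (r from -0.79 to -0.44) had negative r with each of the other 8 genes. The value of -0.0047, for Rbpms and Pou4f1, is close to no relation. Rbpms and Opn4 went with each other (r = 0.724). All 28 pairs among those other 8 were positive, a grouping taken from these same values, and no share over other genes is given. Vigabatrin 2349 held the highest vigabatrin value for 7 of the 10 genes, and 9 of 10 were above their own mean there. In vigabatrin 2429 0 of 10 were above their mean, and that library held the lowest vigabatrin value for 6. Among vehicle libraries, 832 was highest for 5 genes, and 835 was lowest for 5 and highest for Rbpms and Opn4. The lens-rich vigabatrin 2344 and 2429 were the lowest pair of their group for 7 of 10 genes, where 16.4% of all tested genes showed that pattern. In vehicle the lens-rich 835 and 1582 were the lowest pair for Nefm and Nefh and the highest pair for Rbpms and Opn4, beside 17.2% and 18.8% of all tested genes. The part of carried-over tissue in these orders was not tested.

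**Figure D4:**
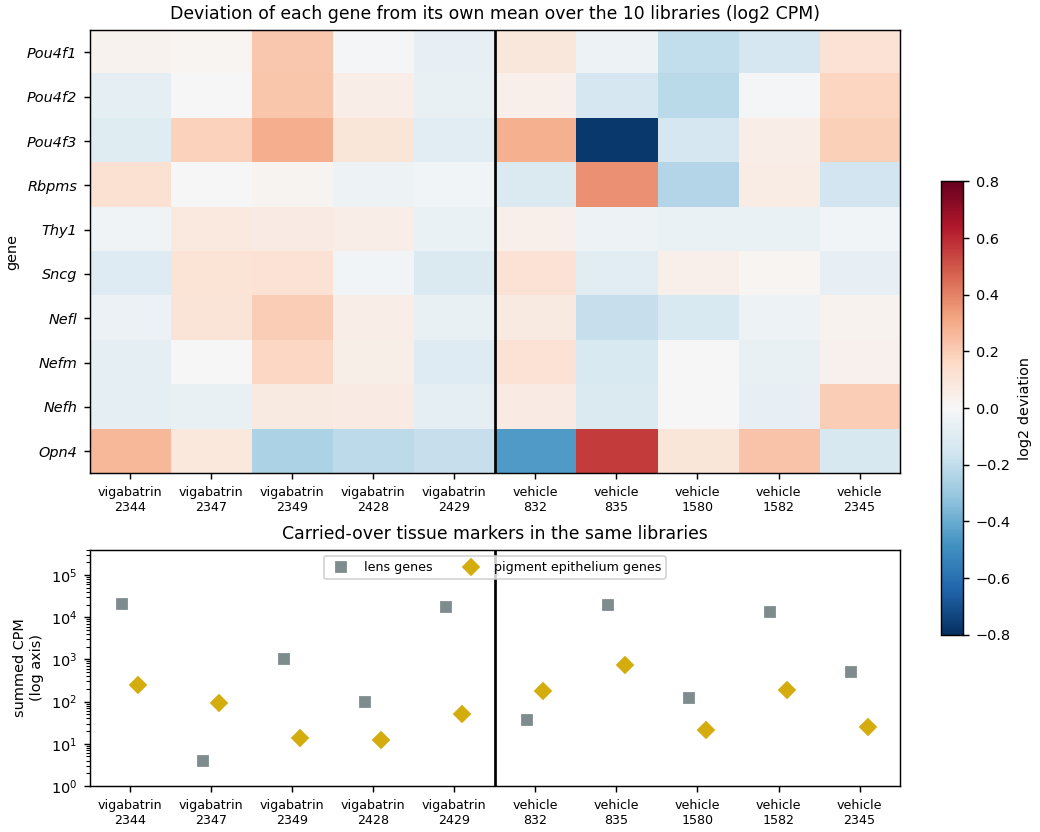
Top, deviation of each gene's log2 CPM from its mean over 10 libraries (columns, vigabatrin left of the line and vehicle right); red is above and blue below the mean. Bottom, summed CPM of lens and pigment epithelium markers on a log axis. Vehicle 835 is at -0.77 for Pou4f3 and 0.56 for Opn4, and vigabatrin 2349 is above the mean for 9 of 10 genes.

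Of 8 relations examined over the 10 libraries, chosen after the values were seen, the closest was between Nefl and Nefm (Pearson r = 0.905, permutation p = 0.00094, adjusted 0.00752; Spearman rho = 0.903, permutation p = 0.0013, adjusted 0.0104). Without vigabatrin 2349 and vehicle 835, the libraries farthest from the median, r was 0.827. Pou4f1 and Pou4f2 gave r = 0.83 (permutation p = 0.00506, adjusted 0.0147) and rho = 0.624 (permutation p = 0.0593, adjusted 0.0678), and r = 0.579 without vigabatrin 2349 and vehicle 2345. Rbpms and Opn4 were positively related (r = 0.724, permutation p = 0.0173, adjusted 0.0277; rho = 0.661, permutation p = 0.0441, adjusted 0.0642; r = 0.804 without vehicle 835 and 1580). Nefl and Opn4 ran in opposite directions (r = -0.699, permutation p = 0.0235, adjusted 0.0313; rho = -0.745, permutation p = 0.0167, adjusted 0.0336; r = -0.584 without vigabatrin 2349 and vehicle 835). Nefl and Nefm share the exonic stretch given above, and all pairs share their library's scaling. The adjustment here and below covers these 8 relations alone, so it does not allow for their choice from among all pairs. Each group's mean was subtracted first, and the permutations did not allow for that subtraction.

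The level of pigment epithelium markers went with that of Rbpms (r = 0.768, permutation p = 0.0055, adjusted 0.0147; rho = 0.855, permutation p = 0.00304, adjusted 0.0122; r = 0.647 without vehicle 1580 and 2345). With Opn4 it gave r = 0.59 (permutation p = 0.0715, adjusted 0.0817) and rho = 0.648 (permutation p = 0.0482, adjusted 0.0642), and r = 0.666 without vehicle 1580 and 2345. The lens level went against Thy1 (r = -0.791, permutation p = 0.00902, adjusted 0.018; rho = -0.745, permutation p = 0.0168, adjusted 0.0336), with r = -0.704 without vigabatrin 2344 and 2347. With Nefl the lens level gave r = -0.568 and rho = -0.576 (permutation p = 0.0883 and 0.0889, adjusted 0.0883 and 0.0889), and r = -0.516 without the same libraries. With the lens level as a term the log2 fold changes of Thy1 and Nefl were 0.05 and 0.09, close to the values without it. The lens-rich libraries were 2 in each group, so that term could move a group difference little. It does not show how lens RNA bears on either gene.

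The 5 genes outside the set whose pattern over the 10 libraries was most like the mean of the standardised ganglion cell genes, with group means removed, were Yme1l1 (r = 0.979, rho = 0.976), Calb2 (r = 0.962, rho = 0.903), Shoc2 (r = 0.96, rho = 0.988), Trim36 (r = 0.957, rho = 0.964) and Kcnj3 (r = 0.934, rho = 0.855). They were picked as the highest by that measure among genes outside the set, so no p is given. Within the set, Rbpms and Opn4 ran against the mean of the other ganglion cell genes (r = -0.395 and -0.664). The likeness therefore does not extend to all 10. Calb2, calretinin, a calcium-binding protein of amacrine and ganglion cells, had 235 CPM after vigabatrin and 245 CPM in vehicle (log2 fold change -0.06, SE 0.05, adjusted p = 0.855).

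Promoter sequence in RefSeq (build GRCm38.p6) was matched for only 4 of the 10 genes, Pou4f1, Pou4f2, Sncg and Opn4. For these the 250 bases before the RefSeq start are shown, read 5′ to 3′ on the gene's own strand. Capitals mark GC boxes (GGGCGG on either strand, neighbouring matches may overlap).
Pou4f1: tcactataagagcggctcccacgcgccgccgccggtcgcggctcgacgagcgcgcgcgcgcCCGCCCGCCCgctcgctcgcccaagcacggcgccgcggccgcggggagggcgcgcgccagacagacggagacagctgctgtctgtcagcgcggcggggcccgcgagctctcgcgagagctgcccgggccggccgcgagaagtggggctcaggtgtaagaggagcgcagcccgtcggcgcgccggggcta
Pou4f2: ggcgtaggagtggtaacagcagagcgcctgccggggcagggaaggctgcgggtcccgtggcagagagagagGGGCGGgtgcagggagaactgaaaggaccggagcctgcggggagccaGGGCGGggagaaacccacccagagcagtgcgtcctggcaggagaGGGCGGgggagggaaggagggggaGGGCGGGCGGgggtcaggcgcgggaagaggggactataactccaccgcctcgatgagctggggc
Sncg: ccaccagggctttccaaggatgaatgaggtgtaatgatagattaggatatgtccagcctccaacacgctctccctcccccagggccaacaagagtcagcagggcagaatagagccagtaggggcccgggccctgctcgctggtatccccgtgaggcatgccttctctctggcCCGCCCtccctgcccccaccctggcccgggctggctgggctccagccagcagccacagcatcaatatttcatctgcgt
Opn4: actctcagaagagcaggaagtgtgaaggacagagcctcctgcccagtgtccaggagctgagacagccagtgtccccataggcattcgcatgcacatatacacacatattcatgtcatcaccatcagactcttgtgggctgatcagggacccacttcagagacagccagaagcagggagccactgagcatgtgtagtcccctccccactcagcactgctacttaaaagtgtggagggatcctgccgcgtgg
They cover chr14:104468000-104468249, chr8:78436648-78436897, chr14:34374670-34374919 and chr14:34600143-34600392, all on the minus strand. The RefSeq start of Sncg lies within the gene as the deposited file gives it, so part of its window does too. Pou4f1 has 2 GC boxes, Pou4f2 has 5, Sncg has 1 and Opn4 has 0, and 32.9% of 27025 promoters of that length have at least 1. Their GC content is 78.0%, 70.8%, 61.6% and 54.8%, against 53.0% over all these promoters. None of the 4 windows holds the CAAT box letters CCAAT on either strand, which 34.5% of all promoters hold. The same is true of the TATA box letters TATAAA, held by 13.0% of promoters, and of the homeodomain core TAATTA, held by 4.90%. These are matches of letters only.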

How the data were processed

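RNA of 10 retina libraries, 5 vigabatrin and 5 vehicle by the treatment label, was measured by sequencing. The authors deposited unnormalised counts for each Ensembl gene; the submitters' processing notes list HTSeq 0.6.1, edgeR 3.16.5, DESeq2 and mm10. No source used here gives the aligner, the annotation release or the strand setting. The deposited table also gives each gene's length in bases, used here for RPKM. For Nefm that length, 3680 bases, is shorter than the 5782 exonic bases of its transcripts together. A column of counts that matches no sample used here (1 column) entered no step. Coordinates are those of the file, and all 10 genes have the same coordinates in GENCODE M21.

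After filterByExpr, the 17435 genes left were TMM-scaled and put through the quasi-likelihood test of edgeR 4.0.16 in R 4.3.3 on treatment group, and p-values were adjusted by Benjamini-Hochberg over all of them. CPM and RPKM use TMM library sizes, standard errors were taken as the size of the log2 fold change over the root of F, with a median of 0.0875 over all genes. The test was run on simulated counts with 200 changed genes before use. Alternatives were DESeq2 1.42.0, limma-voom (limma 3.58.1), other scalings, no filter, each library left out, and terms or exclusions for lens, pigment epithelium and the title number range (at least 2344 or lower). Pairs of libraries within a group differed by more than sampling noise, with chi-square over its degrees of freedom at 8.46 to 139, and all were kept. Ratios were compared over all 252 exact permutations (two-sided, lowest p reachable 0.00794). Correlations used log2 CPM with each group's mean subtracted and 100000 permutations over all libraries, which do not allow for that subtraction.

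The genes, the 4 related lists and the 14 marker lists were chosen with earlier results of these data known, so no test over a list was made. Named from each related list were the 4 genes of smallest p (1 result is not reported here), and Slc17a6 was added after its value was seen. Counts past a threshold are set beside the share over all genes.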

Additional observations from a re-analysis of the deposited data

How the results depend on the processing

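The number of genes called over the whole table, 1, was 0 with library size alone, with no filter on low counts, with limma-voom, without the lens-rich libraries, and with the title number range, the lens level or the pigment epithelium level as a term. It was 85 with DESeq2's Wald test (34 higher, 51 lower), and 0 to 39 with 1 library left out, 39 without vehicle 2345; the cause was not tested. None of the 19 alternatives called a ganglion cell gene. The fit with the range of title numbers compares with vehicle 2345 alone. Apart from that fit, an unadjusted p under 0.05 was reached by Rbpms alone, without the lens-rich libraries. Over all 19 the median log2 fold change of the 10 stayed positive, between 0.0016 and 0.067.

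Some log2 fold changes turned sign, among them that of Spp1, which was -0.37 in the fit on group alone. Sncg was at 0.0045 with library size alone and 0.037 without the lens-rich libraries, where Opn4 was at 0.025 and Sptbn4 at -0.0041. With the range of title numbers in the model the values were -0.076 for Pou4f1, -0.14 for Pou4f2, -0.11 for Pou4f3, 0.064 for Sncg, -0.024 for Nefm, 0.082 for Opn4, 0.016 for Jam2, 0.095 for Spp1, -0.0067 for Tubb3, -0.055 for Kif5a and -0.088 for Sptbn4. With the pigment epithelium level as a term Nefm was at -0.022. Without the lens-rich libraries the log2 ratio difference was -0.028 for Pou4f1 to Pou4f2, -0.022 for Pou4f3 to Pou4f2 and 0.064 for Rbpms to Pou4f2.

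With 1 library left out, the values whose sign turned ran from -0.039 to 0.12 for Rbpms, -0.038 to 0.0200 for Sncg, -0.028 to 0.043 for Nefm, -0.023 to 0.20 for Pou4f3, -0.066 to 0.012 for Nefh, -0.023 to 0.033 for Pou4f1 to Pou4f2 (ratio), -0.11 to 0.094 for Rbpms to Pou4f2 (ratio) and -0.055 to 0.17 for Pou4f3 to Pou4f2 (ratio).

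The 10 libraries give 95% intervals no narrower than a fold of 0.978 to 1.10 for any of the 10 ganglion cell genes. Each interval covers its gene alone, whereas a call needed an adjusted p under 0.05 over all 17435 genes. The only gene called, St8sia2, had a log2 fold change of 0.33 (SE 0.04). Atf5, at 0.98 (SE 0.13, adjusted p = 0.104, edgeR quasi-likelihood test), was not called. The intervals therefore do not give the smallest difference the test detects, and missing the threshold does not show equal levels. Pou4f3 and Opn4 rest on few counts. Lens and pigment epithelium RNA and title numbers vary between libraries. They were entered as model terms, and the lens and pigment epithelium levels in correlations. Whether they cause any difference was not tested. No paired analysis was possible because the groups share no replicate number.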
